A study of Mus musculus with 21 samples.

Results

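Spry2, Spry4, Spred1, Spred2, Dusp4, Dusp5, Dusp6, Etv4, Etv5 and Ier3 are genes whose transcription follows ERK signalling, and most of them encode proteins that damp the pathway again. They were chosen by name from what is known of the pathway, at a time when earlier results of these data were known. All 10 have a row in the deposited expression table of 16443 genes, and they are described here in 8 groups made of 4 cell lines and 2 media. All libraries come from 2TS22C, a mouse embryonic stem cell line. The FNV, miniSOX and SOX2 lines were transduced with a lentivirus for SOX17FNV (engineered SOX17, a factor otherwise known from endoderm), miniSOX (given by name only) or SOX2. In these 3 rescued lines the endogenous SOX2 was silenced and the labels list DOX (doxycycline). NTC cells are 2TS22C that were not transduced, with the genotype WT and no DOX in their labels, so rescue factor, transduction and DOX cannot be told apart in any comparison with NTC. The sources used here do not say whether a rescued line is 1 clone. Each line was kept in serum with LIF (SL) and in that medium plus 2i, a pair of inhibitors of MEK and GSK3 (2i below). There were 4 FNV, 2 miniSOX, 4 SOX2 and 3 NTC libraries in 2i, and 2 libraries of each line in SL.

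In the ERK pathway, growth factor receptors switch on RAS, RAS switches on RAF, and RAF acts through MEK to phosphorylate ERK, which enters the nucleus and raises transcription of early response genes. Among those genes are the pathway's own brakes. Sprouty (Spry) and Spred proteins act near RAS and RAF, Dusp4, Dusp5 and Dusp6 are phosphatases that remove phosphate from ERK or related kinases, and Etv4 and Etv5 are PEA3-family ETS transcription factors. Ier3 encodes a small immediate early protein that is a substrate of ERK. In mouse embryonic stem cells FGF4 is the main source of ERK signalling, and the MEK inhibitor of 2i blocks the step just above ERK, so these genes serve as a common readout of the pathway.

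The members lie on 9 different chromosomes of GRCm38 (mm10) in the GENCODE M21 annotation, which places Spry2 at chromosome 14, 105891947 to 105896819 on the minus strand, Spred1 at chromosome 2, 117121374 to 117182279 on the plus strand, and Spred2 at chromosome 11, 19924375 to 20024026 on the plus strand. The phosphatase genes are all on plus strands, with Dusp4 at chromosome 8, 34807297 to 34819894, Dusp5 at chromosome 19, 53529109 to 53542431, and Dusp6 at chromosome 10, 99263231 to 99267489. Ier3 lies on the plus strand of chromosome 17, 35821684 to 35822923. The table has 1 row for each gene, so isoforms are not separated.

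Several members are paralogues of each other, and the transcripts show how far a read could be shared between them. Etv4 lies at chromosome 11, 101769742 to 101785371, minus strand, and Etv5 at chromosome 16, 22381309 to 22439719, minus strand. The stretch of coding sequence around their longest exact shared run is printed here because the pair differed in 2i in FNV and miniSOX cells. In this 90-base window 78 bases were identical (86.7%), and the capitals mark the longest exact run the pair shares, 23 bases.
Etv4: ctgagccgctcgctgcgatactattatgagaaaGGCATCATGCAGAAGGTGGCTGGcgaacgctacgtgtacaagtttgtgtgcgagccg
Etv5: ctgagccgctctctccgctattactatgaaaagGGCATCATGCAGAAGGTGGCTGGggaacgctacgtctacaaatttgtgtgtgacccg
The window covers coding positions 1189 to 1278 of Etv4 and 1318 to 1407 of Etv5, counted from the A of the start codon.

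The 3 phosphatase genes are printed around the codons of their shared active site, a His-Cys pair followed by an Arg after 5 other residues, the signature of the protein tyrosine phosphatase superfamily to which dual-specificity phosphatases belong. Capitals mark the 24 bases that encode this signature, which occurred 1 time in each coding sequence.
Dusp4: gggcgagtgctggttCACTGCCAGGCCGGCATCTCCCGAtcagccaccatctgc
Dusp5: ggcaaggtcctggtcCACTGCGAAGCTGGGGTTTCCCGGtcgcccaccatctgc
Dusp6: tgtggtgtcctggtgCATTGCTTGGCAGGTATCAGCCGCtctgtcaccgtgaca
The longest exact runs between coding sequences were 11 bases for Dusp4 with Dusp5, 13 for Dusp4 with Dusp6 and 10 for Dusp5 with Dusp6. They were 13 bases for Spry2 with Spry4 and 17 for Spred1 with Spred2. None of these pairs of coding sequences shared a run of 50 bases. Sharing with genes outside the 10 was found for Etv5, in which 24.5% of 50-base stretches (1053 of 4291) also occur in Gm4798, for Dusp5 with 20.5% (498 of 2424, in AC137853.2) and for Spred2 with 1.34% (62, in Gm14612). None of these 3 other genes has a row in the table, so how their reads were counted is not known, and Etv5 and Dusp5 values are the less certain for it.

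The deposited values are whole numbers that the authors had already made equal in distribution between libraries. Totals were 14044316 to 14047262 in all 21 libraries, so sequencing depth is unknown and no counting interval can be given. Because the values are not divided by length, they are compared between samples of a gene and not between genes. The samples were deposited as a first set of 12 libraries (replicates 1 and 2 of FNV, SOX2 and NTC in both media) and a second set of 9 (the 2i libraries with column names p21 and p31, and all miniSOX libraries). The sets are called waves here, and no label gives a sequencing run or date. In the titles, the second-wave FNV, SOX2 and NTC samples carry biological replicate numbers that start at 2. First-wave replicates 1 and 2 may thus be repeats of 1 culture, though no label says so. Nothing says that they came from separate cultures, so p-values may measure only technical spread, above all those of the first wave alone. The library farthest from its group was NTC 2i p31, with a median absolute log2 difference of 0.380 from its group, against 0.0903 to 0.293 elsewhere. The next farthest were the p31 libraries of SOX2 and FNV, and p31 is the only second-wave NTC library, while FNV and SOX2 have p21 and p31. Sox2 read 19 to 60 in FNV and miniSOX libraries and 533 to 2697 in SOX2 and NTC libraries. All 10 embryonic stem cell markers were above 0 in every group, with summed levels of 48104 to 91584. The sum hides single markers. Lin28a averaged 55.75, 113.5, 54.5 and 305 in 2i in FNV, miniSOX, SOX2 and NTC, against 1974, 2994.5, 2714 and 2107.5 in SL. Lin28a and Utf1 were called lower in 2i in each line. In 2i, 0 of the 10 were called higher and 5 lower in FNV, and 2 and 2 in miniSOX. The counts were 4 and 2 in SOX2 and 3 and 2 in NTC, with backgrounds given below. Summed trophectoderm markers (12 of 12 measured) were 6692 to 8941 in FNV 2i, 2656 to 2814 in FNV SL, 3914 to 3960 in miniSOX 2i, 19033 to 19038 in miniSOX SL, 1973 to 2420 in SOX2 2i, 1862 to 2761 in SOX2 SL, 2346 to 3119 in NTC 2i and 11512 to 11673 in NTC SL. Summed primitive endoderm markers (9 of 12 measured) were highest in FNV 2i, at 15160 to 18660, and 6384 to 14559 elsewhere. In FNV 6 of these 9 were called higher in 2i than in SL and 2 lower (background 20.3% higher, 20.4% lower). Gata6 averaged 327.5 in FNV 2i and 0.5 in FNV SL, while Col4a1 averaged 340 in FNV 2i and 4959.5 in FNV SL. In miniSOX SL Col4a1 averaged 5830.5 and Gata6 12.5. Fibroblast or feeder markers (12 of 14) summed to 19204 to 41382 in 2i and 6914 to 10637 in SL, with Col1a1 at 1 to 27 in 2i libraries, Lum at 0 in every SL library and Dcn at 0 in SOX2 and NTC SL libraries. Most of the feeder sum was Fn1, with group means of 21619 to 30292 in 2i and 5797 to 9102 in SL, while more markers of the list were called lower than higher in 2i in each line (6 and 1 in FNV, 6 and 2 in miniSOX, 4 and 2 in SOX2, 5 and 2 in NTC). Cdx2, a defining trophectoderm marker, was at 0 in FNV SL libraries. The part of these markers in the results below was not tested, and in bulk RNA fewer cells of a type and less RNA per cell cannot be told apart.

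The first comparison asks how far the genes changed in each line in 2i, which holds the MEK inhibitor together with the GSK3 inhibitor, so the part of each cannot be told apart. With all libraries none of the 10 genes was called higher in 2i in any line, and Spry4, Spred1 and Dusp6 fell in all 4 lines. A call means a Benjamini-Hochberg adjusted p under 0.05 over all 16443 genes in limma, with a term for each group and for the wave. In FNV cells 4 of 10 members fell, against a background of 20.4% of all genes called lower and 20.3% called higher. In miniSOX cells 8 of 10 fell (background 16.4% lower, 17% higher). In SOX2 cells all 10 fell (22.5% lower, 22.3% higher), and in NTC cells 6 of 10 fell (12.8% lower, 11.9% higher). The median log2 change of the 10 genes was -0.95 in FNV, -3.26 in miniSOX, -2.03 in SOX2 and -0.90 in NTC, while that of all genes lay between -0.02 and 0.03. The NTC count was 1 and the SOX2 count 6 when first-wave replicates were averaged to 1 value per group. With first-wave libraries alone the count was 8 in FNV (7 lower, and Spry2 higher) and 9 in NTC (8 lower, and Etv5 higher). The shares of all genes called in these alternative fits are not given here, so their counts have no background beside them. Leaving out NTC SL replicate 1 removed the NTC calls of Spred1 (log2 change -0.36, adjusted p = 0.0891 in limma), Dusp5 and Dusp6 (-2.30, adjusted p = 0.0507 in limma).

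**Figure D1:**
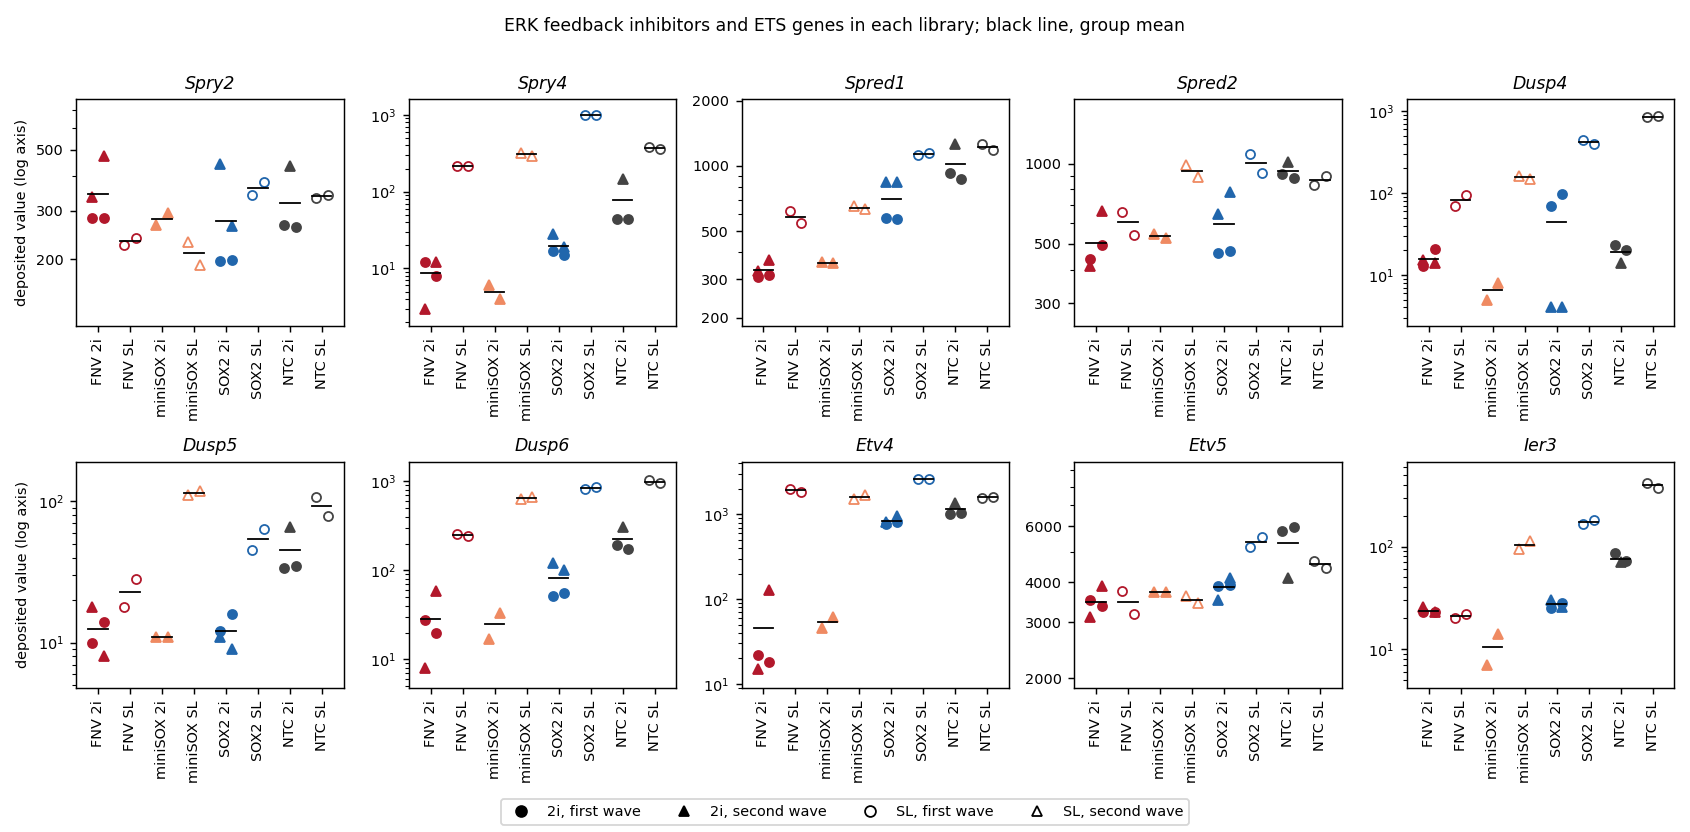
Deposited values (log axis, normalized by the authors) of the 10 genes in each of the 21 libraries, by line and medium. Filled points are 2i and open points SL libraries, circles the first and triangles the second wave, and black lines group means. Spry4, Dusp4, Dusp6 and Ier3 drop in most 2i groups, Etv4 drops to 15 to 129 in FNV and miniSOX 2i libraries but stays at 777 to 1379 in SOX2 and NTC 2i libraries, and Etv5 stays between 3108 and 5994 throughout.

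Sprouty genes encode inhibitors that bind adaptor proteins below growth factor receptors, and the 2 members behaved differently. Spry4 spans 38586247 to 38601415 on the minus strand of chromosome 18 in the same annotation. In FNV cells Spry4 read 12, 8, 3 and 12 in 2i (replicates 1, 2, p21 and p31, the order used throughout), against 218 and 216 in SL. In miniSOX cells Spry4 read 6 and 4 in 2i, against 317 and 293 in SL. The 2i libraries of both lines were thus near the bottom of the scale and far below their SL libraries. In SOX2 cells Spry4 read 17, 15, 28 and 19 in 2i, against 992 and 987 in SL, the highest level of any group. In NTC cells Spry4 read 44, 44 and 148 in 2i (replicates 1, 2 and p31), against 377 and 363 in SL. No 2i library overlapped an SL library of its line. The log2 change was -4.83 ± 0.50 in FNV (SE, here and below), -5.69 ± 0.54 in miniSOX, -5.82 ± 0.50 in SOX2 and -2.60 ± 0.50 in NTC, and the adjusted p in limma was at most 0.00184. Fitted folds were 28.4, 51.7, 56.3 and 6.07 lower in the same order of lines.

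The fall of Spry4 in 2i was larger in each rescued line than in NTC. The difference in log2 change was -2.22 ± 0.68 for FNV (adjusted p = 0.026 in limma), -3.09 ± 0.74 for miniSOX (adjusted p = 0.0128 in limma) and -3.21 ± 0.68 for SOX2 (adjusted p = 0.00483 in limma). Within the first wave it was -1.29 ± 0.23 for FNV (adjusted p = 0.003 in limma) and -2.82 ± 0.23 for SOX2 (adjusted p = 0.000101 in limma). The FNV difference was no longer called without NTC 2i p31, or without any 1 of the 4 FNV and NTC SL libraries (-2.25 to -1.56, adjusted p 0.0679 to 0.0742 in limma), and the miniSOX difference without miniSOX 2i replicate 2 (-2.85, adjusted p = 0.058 in limma). Each of these Spry4 differences from NTC was lost where first-wave replicates were averaged. That of FNV was also lost where only the groups compared were fitted. Spry2 moved little in either direction. In FNV cells Spry2 read 283, 283, 336 and 476 in 2i, against 226 and 239 in SL. Spry2 read 267 and 294 in miniSOX 2i, against 230 and 191 in miniSOX SL. In SOX2 cells Spry2 read 197, 199, 443 and 265 in 2i, against 342 and 383 in SL, and in NTC cells 267, 262 and 435 in 2i, against 335 and 341 in SL. Its 2i libraries lay above SL in FNV and miniSOX and overlapped SL in SOX2 and NTC. For Spry2 a fall was called in SOX2 cells alone (-0.80 ± 0.18, adjusted p = 0.00239 in limma), and its change was higher in FNV than in SOX2 by 1.0 ± 0.24 (adjusted p = 0.00952 in limma). Both of these calls were lost without the wave term, and also where first-wave replicates were averaged.

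Spred proteins bind RAS regulators at the membrane and hold back the activation of RAF. Spred1 fell modestly in 2i in every line. In FNV cells Spred1 read 306, 313, 329 and 370 in 2i, against 618 and 543 in SL. Spred1 read 359 and 357 in miniSOX 2i, against 654 and 631 in miniSOX SL, again without overlap. In SOX2 cells Spred1 read 573, 572, 843 and 841 in 2i, against 1119 and 1152 in SL. In NTC cells Spred1 read 927, 873 and 1265 in 2i, against 1265 and 1178 in SL, and NTC was the only line in which the media overlapped. The log2 change of Spred1 was -1.01 ± 0.10 in FNV, -0.84 ± 0.11 in miniSOX, -0.91 ± 0.10 in SOX2 and -0.41 ± 0.10 in NTC, with adjusted p in limma of at most 0.00839. The change exceeded that of NTC by -0.61 ± 0.14 in FNV (adjusted p = 0.0044 in limma) and -0.50 ± 0.14 in SOX2 (adjusted p = 0.0192 in limma), and differed from it by -0.43 ± 0.15 in miniSOX (adjusted p = 0.0657 in limma). The FNV and SOX2 differences were both lost without the wave term, and also on averaging first-wave replicates. The SOX2 difference was lost as well without NTC SL replicate 2 or SOX2 SL replicate 2 (-0.48 to -0.45, adjusted p 0.0652 to 0.083 in limma).

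Spred2 separated the lines more. In miniSOX cells it read 547 and 525 in 2i, against 988 and 892 in SL, and in SOX2 cells 463, 470, 647 and 785 in 2i, against 1086 and 920 in SL. Both falls were called, at -0.81 ± 0.19 (adjusted p = 0.00492 in limma) and -0.96 ± 0.18 (adjusted p = 0.000524 in limma). In FNV cells Spred2 read 439, 495, 412 and 663 in 2i, against 661 and 542 in SL (-0.44 ± 0.18, adjusted p = 0.0597 in limma). In NTC cells Spred2 read 917, 881 and 1010 in 2i, against 831 and 901 in SL, and the log2 change was -0.00 ± 0.18 (adjusted p = 1 in limma). The SOX2 change was below that of NTC by -0.96 ± 0.24 (adjusted p = 0.0138 in limma), a call lost without NTC SL replicate 1 or SOX2 SL replicate 1 (-0.90 to -0.84, adjusted p 0.0589 to 0.065 in limma). This call was also lost without the wave term and where first-wave replicates were averaged.

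Dusp6 encodes a cytoplasmic phosphatase with high preference for ERK, Dusp5 a nuclear ERK phosphatase, and Dusp4 a nuclear phosphatase that also acts on related kinases. In FNV cells Dusp6 read 28, 20, 8 and 58 in 2i, against 258 and 243 in SL. In miniSOX cells Dusp6 read 17 and 33 in 2i, against 637 and 667 in SL. Both lines were lower in 2i without overlap, and FNV had the lowest SL level of the 4 lines. In SOX2 cells Dusp6 read 51, 55, 120 and 102 in 2i, against 814 and 861 in SL. In NTC cells Dusp6 read 193, 172 and 303 in 2i, against 1037 and 945 in SL. The log2 change was -3.67 ± 0.54 in FNV, -4.72 ± 0.59 in miniSOX, -3.70 ± 0.54 in SOX2 and -2.37 ± 0.55 in NTC, with adjusted p in limma of at most 0.006. None of the differences between lines in this change was called in the fit with all libraries. The smallest adjusted p was 0.0691 in limma, for miniSOX against NTC (-2.35 ± 0.81). With first-wave libraries alone the change was larger than that of NTC by -0.91 ± 0.21 in FNV (adjusted p = 0.0103 in limma) and -1.52 ± 0.21 in SOX2 (adjusted p = 0.00111 in limma).

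Dusp4 ranged from 4 to 870, and its SOX2 2i libraries differed between waves. In miniSOX cells Dusp4 read 5 and 8 in 2i, against 163 and 150 in SL, a change of -4.42 ± 0.81 (adjusted p = 0.00073 in limma). In NTC cells Dusp4 read 23, 20 and 14 in 2i, against 852 and 870 in SL, a change of -4.88 ± 0.76 (adjusted p = 0.00035 in limma). NTC cells in SL had the highest level of any group. In SOX2 cells Dusp4 read 70 and 98 in the first-wave and 4 and 4 in the second-wave 2i libraries, against 450 and 396 in SL (-3.50 ± 0.75, adjusted p = 0.00154 in limma). In FNV cells Dusp4 read 13, 21, 15 and 14 in 2i, against 70 and 94 in SL, and the change of -1.45 ± 0.75 did not pass (adjusted p = 0.142 in limma), although within the first wave it was -2.23 ± 0.25 (adjusted p = 0.000123 in limma). The FNV media did not overlap, and the mean of log2(value + 1) was 4.04 in 2i and 6.36 in SL. The fit uses 1 wave term for all lines, while only the SOX2 2i libraries differed strongly between waves and those of FNV read alike. The FNV change was smaller than that of NTC by 3.43 ± 1.03 (adjusted p = 0.0233 in limma), 3.04 ± 0.35 within the first wave (adjusted p = 0.000319 in limma). With all libraries this call was lost without any 1 of the 4 SL libraries involved (3.22 to 3.64, adjusted p 0.0516 to 0.0771 in limma). It was also lost without the wave term and where first-wave replicates were averaged.

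Dusp5 was low in every 2i group of the rescued lines. It read 10, 14, 18 and 8 in FNV 2i libraries, against 18 and 28 in FNV SL libraries (-0.89 ± 0.37, adjusted p = 0.0681 in limma). In miniSOX cells Dusp5 read 11 and 11 in 2i, against 111 and 119 in SL (-3.27 ± 0.40, adjusted p = 2.31e-05 in limma). In SOX2 cells Dusp5 read 12, 16, 11 and 9 in 2i, against 45 and 64 in SL (-2.14 ± 0.37, adjusted p = 0.000306 in limma). The rescued lines thus overlapped in 2i and spread from 18 to 119 in SL. In NTC cells Dusp5 read 34, 35 and 66 in 2i, against 108 and 78 in SL (-1.11 ± 0.38, adjusted p = 0.0447 in limma). The NTC call was lost without any 1 of the 4 first-wave NTC libraries (-1.34 to -0.87, adjusted p 0.076 to 0.275 in limma). The miniSOX change was larger than that of NTC by -2.17 ± 0.55 (adjusted p = 0.0182 in limma), which was lost without NTC SL replicate 2 or any 1 of the 4 miniSOX libraries (-2.22 to -1.93, adjusted p 0.0529 to 0.0711 in limma).

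Etv4 showed the sharpest split between lines. In FNV cells Etv4 read 22, 18, 15 and 129 in 2i, against 2016 and 1834 in SL. In miniSOX cells Etv4 read 46 and 61 in 2i, against 1521 and 1716 in SL. Both lines kept a high level in SL and lost most of it in 2i, by -6.26 ± 0.56 in FNV (76.4-fold lower, adjusted p = 7.9e-07 in limma) and -4.90 ± 0.61 in miniSOX (29.9-fold lower, adjusted p = 2.55e-05 in limma). In SOX2 cells Etv4 read 777, 808, 823 and 958 in 2i, against 2602 and 2621 in SL (-1.93 ± 0.56, adjusted p = 0.0114 in limma). In NTC cells Etv4 read 1025, 1028 and 1379 in 2i, against 1554 and 1627 in SL. The NTC media did not overlap, but the change of -0.69 ± 0.57 was not called (adjusted p = 0.432 in limma), whereas it was with first-wave libraries alone (-0.63 ± 0.09, adjusted p = 0.000966 in limma). The 2i change was larger than that of NTC by -5.57 ± 0.77 in FNV (adjusted p = 0.000123 in limma) and by -4.22 ± 0.83 in miniSOX (adjusted p = 0.00416 in limma). It was larger in FNV than in SOX2 by -4.32 ± 0.74 (adjusted p = 0.00118 in limma), and -4.80 ± 0.13 within the first wave (adjusted p = 2.73e-07 in limma). The SOX2 fall was lost without either SOX2 SL library (-1.94 to -1.93, adjusted p 0.0544 to 0.0561 in limma). Where first-wave replicates were averaged, the SOX2 fall, the miniSOX difference from NTC and the FNV difference from SOX2 were lost. The FNV difference from NTC was called in every alternative.

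Etv5, the other PEA3-family member of the 10, showed no such split. In FNV cells Etv5 read 3513, 3375, 3108 and 3897 in 2i, against 3770 and 3185 in SL, which overlap. Etv5 read 3725 and 3725 in miniSOX 2i, against 3618 and 3439 in miniSOX SL. The log2 changes were 0.07 ± 0.13 in FNV (adjusted p = 0.722 in limma) and 0.08 ± 0.14 in miniSOX (adjusted p = 0.734 in limma). In NTC cells Etv5 read 5797, 5994 and 4137 in 2i, against 4667 and 4454 in SL (0.25 ± 0.13, adjusted p = 0.195 in limma). With first-wave libraries alone Etv5 was called higher in 2i in NTC (0.37 ± 0.08, adjusted p = 0.00805 in limma). In SOX2 cells Etv5 read 3897, 3935, 3513 and 4137 in 2i, against 5154 and 5573 in SL, the only called fall (-0.40 ± 0.13, adjusted p = 0.0198 in limma). That call was lost without SOX2 2i replicate 1 or 2 or SOX2 SL replicate 2 (-0.38 to -0.35, adjusted p 0.0548 to 0.125 in limma). The SOX2 change was below that of NTC by -0.65 ± 0.18 (adjusted p = 0.0196 in limma), lost without either NTC SL library or SOX2 SL replicate 2 (-0.68 to -0.59, adjusted p 0.0507 to 0.0763 in limma).

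Ier3 fell in 2i in 3 lines and was already low in both media in FNV. Ier3 read 23, 23, 26 and 23 in FNV 2i libraries, against 20 and 22 in FNV SL libraries (0.16 ± 0.22, adjusted p = 0.602 in limma). In miniSOX cells Ier3 read 7 and 14 in 2i, against 94 and 113 in SL (-3.25 ± 0.24, adjusted p = 1.65e-07 in limma). In SOX2 cells Ier3 read 25, 28, 30 and 26 in 2i, against 166 and 182 in SL (-2.64 ± 0.22, adjusted p = 4.33e-07 in limma). These 2 lines had no overlap between media, and FNV SL libraries read no higher than any SOX2 2i library. In NTC cells Ier3 read 87, 72 and 70 in 2i, against 420 and 368 in SL (-2.36 ± 0.22, adjusted p = 4.06e-06 in limma). The FNV change was above that of NTC by 2.52 ± 0.30 (adjusted p = 3.56e-05 in limma) and above that of SOX2 by 2.80 ± 0.29 (adjusted p = 2.83e-05 in limma), and both differences were called in every alternative that was run.

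**Figure D2:**
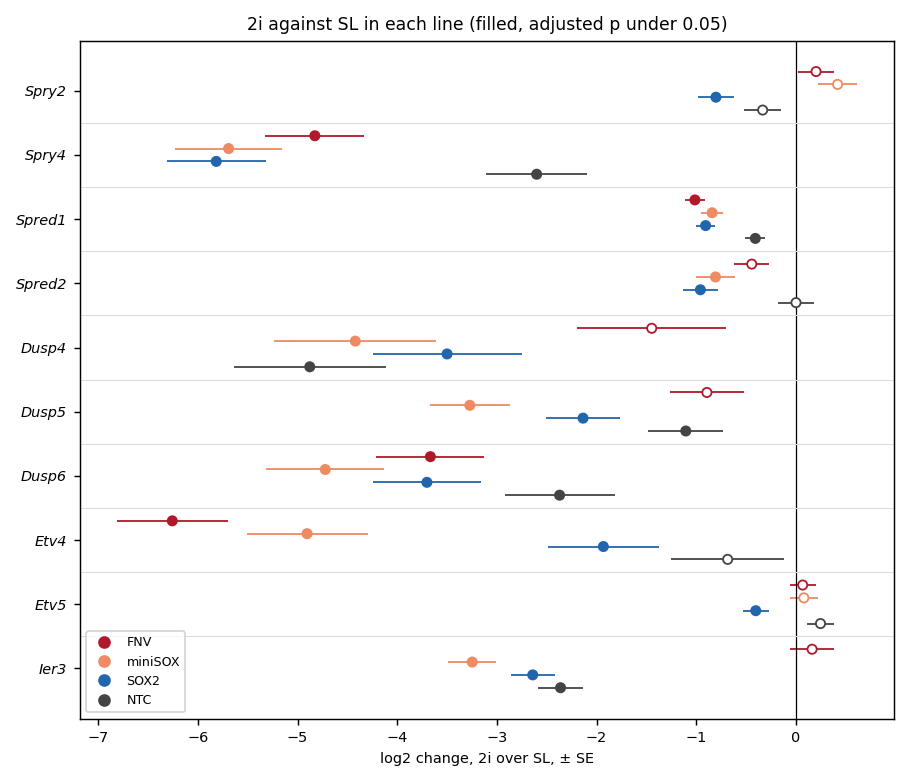
Log2 change of each gene, 2i over SL, in each of the 4 lines (x axis, limma with a wave term; bars are 1 SE; filled points have an adjusted p under 0.05). Spry4, Spred1 and Dusp6 are filled and left of 0 in all 4 lines, Etv4 reaches -6.26 in FNV and -4.90 in miniSOX against -1.93 in SOX2 and -0.69 in NTC, and Ier3 is near 0 in FNV alone.

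The second comparison sets each rescued line against NTC in 2i. Most members were called lower in each of the 3 lines, and none was called higher with all libraries. In FNV 8 of 10 fell (background 20% of all genes lower, 19.7% higher), in miniSOX 9 of 10 (13.5% lower, 14.3% higher) and in SOX2 7 of 10 (14.3% lower, 14.4% higher). Medians of the 10 log2 changes were -1.66, -1.84 and -0.68 in the same order, while those of all genes lay between -0.01 and 0.02. These comparisons share their NTC libraries, so their likeness is not independent evidence. Spry4, Spred1, Spred2, Dusp5, Dusp6, Etv5 and Ier3 fell in all 3 lines, Etv4 in FNV and miniSOX, and Spry2 in miniSOX alone. That Spry2 call (-0.60 ± 0.20, adjusted p = 0.0369 in limma) was lost without any 1 of the 5 libraries compared (-0.67 to -0.53, adjusted p 0.0546 to 0.176 in limma). Dusp4 was not called in any line.

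Among the inhibitors, Spry4 was lower than NTC in 2i by -2.99 ± 0.42 in FNV (adjusted p = 5.08e-05 in limma), -3.77 ± 0.54 in miniSOX (adjusted p = 0.000143 in limma) and -1.80 ± 0.42 in SOX2 (adjusted p = 0.0051 in limma). The SOX2 call was lost without NTC 2i p31, the highest of the NTC 2i libraries (-1.13, adjusted p = 0.0557 in limma), while the first wave alone, which has no p31 library, gave -1.41 ± 0.16 (adjusted p = 0.000347 in limma). Spred1 was lower by -1.68 ± 0.08 in FNV (3.20-fold, adjusted p = 2.87e-09 in limma), -1.75 ± 0.11 in miniSOX (3.37-fold, adjusted p = 7.03e-08 in limma) and -0.60 ± 0.08 in SOX2 (1.52-fold, adjusted p = 0.000121 in limma), with no overlap with NTC in any line. Spred2 was lower by -0.97 ± 0.15 in FNV (adjusted p = 0.000119 in limma), -1.02 ± 0.19 in miniSOX (adjusted p = 0.00127 in limma) and -0.75 ± 0.15 in SOX2 (adjusted p = 0.00187 in limma). Dusp5 was lower by a similar amount in all 3 lines, -1.77 ± 0.31 in FNV, -1.92 ± 0.40 in miniSOX and -1.79 ± 0.31 in SOX2, with adjusted p in limma of at most 0.00272. Dusp6 was lower by -3.27 ± 0.46 in FNV (9.68-fold) and -3.49 ± 0.59 in miniSOX (11.2-fold), each with an adjusted p in limma of at most 0.000554. In SOX2 it was lower by -1.57 ± 0.46 (2.97-fold, adjusted p = 0.0182 in limma), a call lost without NTC 2i replicate 1, NTC 2i p31, SOX2 2i replicate 1 or SOX2 2i replicate 2 (-1.56 to -1.44, adjusted p 0.0508 to 0.0695 in limma).

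The ETS genes again parted. Etv4 was lower than NTC in 2i by -5.30 ± 0.47 in FNV (39.3-fold, adjusted p = 7.37e-07 in limma) and -4.79 ± 0.61 in miniSOX (27.6-fold, adjusted p = 5.55e-05 in limma), and -0.53 ± 0.47 in SOX2 was not called (adjusted p = 0.443 in limma). Etv5 fell by small amounts, -0.57 ± 0.11 in FNV (adjusted p = 0.000669 in limma), -0.40 ± 0.14 in miniSOX (adjusted p = 0.0462 in limma) and -0.42 ± 0.11 in SOX2 (adjusted p = 0.0102 in limma). The miniSOX call of Etv5 was lost without NTC 2i replicate 1 or 2 or either miniSOX 2i library (-0.40 to -0.34, adjusted p 0.0948 to 0.151 in limma) and with the replicate number as a block. The SOX2 call of Etv5 was lost without NTC 2i replicate 2 (-0.34, adjusted p = 0.0541 in limma). With second-wave libraries alone Etv5 was called in none of the 3 lines, at -0.25 ± 0.16 in FNV (adjusted p = 0.347 in limma), -0.15 ± 0.16 in miniSOX (adjusted p = 0.581 in limma) and -0.12 ± 0.16 in SOX2 (adjusted p = 0.722 in limma). Ier3 was lower by -1.64 ± 0.18 in FNV (adjusted p = 6.53e-06 in limma), -2.82 ± 0.24 in miniSOX (adjusted p = 1.39e-06 in limma) and -1.45 ± 0.18 in SOX2 (adjusted p = 6.06e-05 in limma).

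Within single waves most of these values had the same sign. In the first wave Spry4 was lower than NTC by -2.06 ± 0.16 in FNV and -1.41 ± 0.16 in SOX2, and Etv4 by -5.62 ± 0.09 in FNV and -0.37 ± 0.09 in SOX2, with adjusted p in limma of at most 0.0132. In the second wave, with 1 NTC library, Spry4 was lower by -4.37 ± 0.70 in FNV (adjusted p = 0.0116 in limma), -4.65 ± 0.70 in miniSOX (adjusted p = 0.0101 in limma) and -2.63 ± 0.70 in SOX2 (adjusted p = 0.0731 in limma). Second-wave values for Etv4 were -4.92 ± 1.09 in FNV (adjusted p = 0.0306 in limma), -4.68 ± 1.09 in miniSOX (adjusted p = 0.0364 in limma) and -0.63 ± 1.09 in SOX2 (adjusted p = 0.795 in limma). In each line fewer members were called with second-wave libraries alone than with all libraries. The share of all genes called in that fit is not given here. Dusp4 in SOX2 cells changed sign between waves, at 1.90 ± 0.25 in the first (adjusted p = 0.000617 in limma) and -1.58 ± 0.40 in the second (adjusted p = 0.064 in limma).

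**Figure D3:**
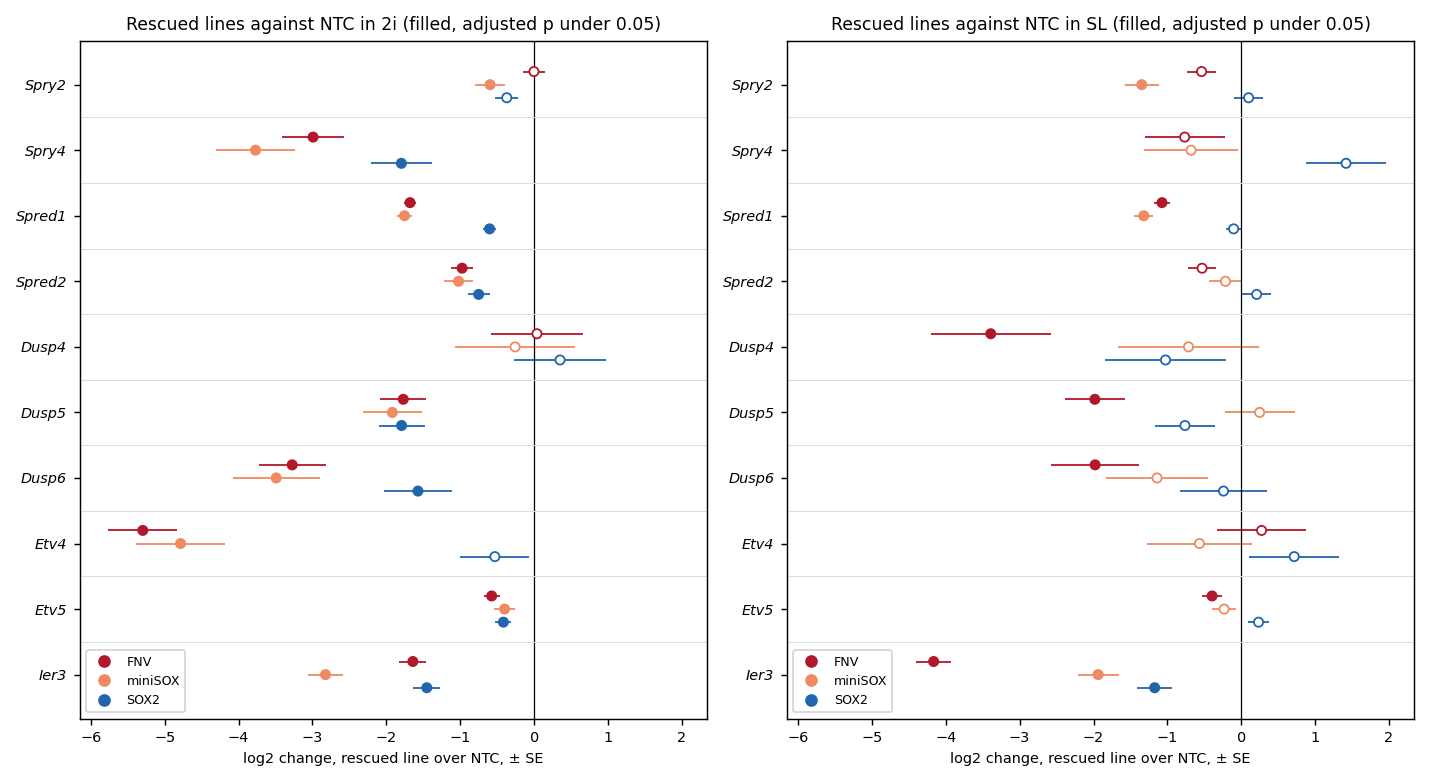
Log2 change of each gene, rescued line over NTC, in 2i (left) and SL (right; x axes, limma with a wave term; bars are 1 SE; filled points have an adjusted p under 0.05). In 2i most points lie left of 0 and Etv4 is at -5.30 in FNV and -4.79 in miniSOX, while in SL Etv4 is open in all 3 lines and Ier3 is filled in all 3.

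**Figure D4:**
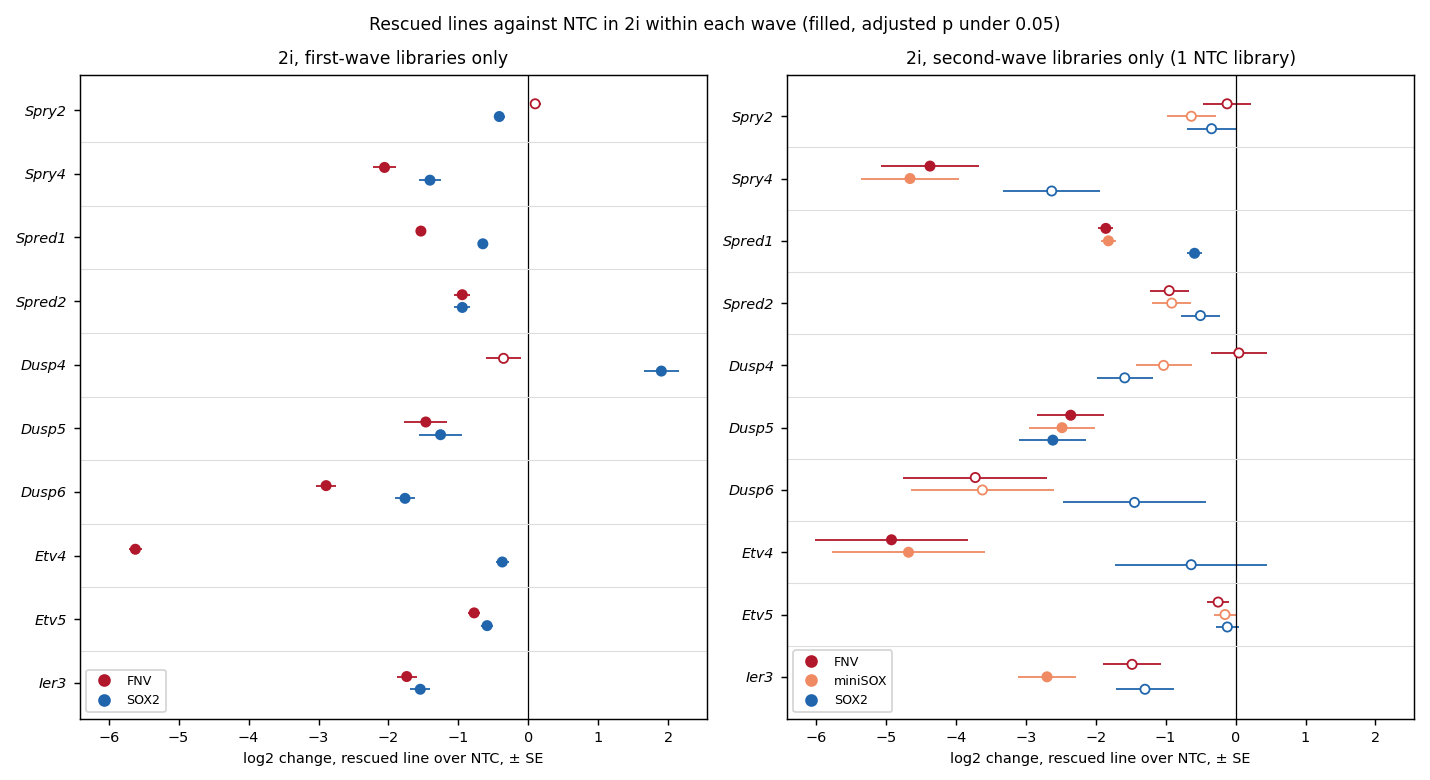
Log2 change of each gene in 2i, rescued line over NTC, from first-wave libraries alone (left, FNV and SOX2) and second-wave libraries alone (right, with 1 NTC library; bars are 1 SE; filled points have an adjusted p under 0.05). Dusp4 in SOX2 lies at 1.90 in the first wave and -1.58 in the second, and Spred1 and Dusp5 are filled in both waves in each line shown.

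The same comparison with NTC was made in SL, without the inhibitors. In FNV 6 of 10 fell (background 15.8% lower, 14.2% higher), in miniSOX 3 of 10 (10.2% lower, 9.44% higher) and in SOX2 1 of 10 (7.63% lower, 7.35% higher), a share near its background. The medians of the 10 log2 changes were -0.92, -0.70 and -0.00 in the same order. Ier3 fell in all 3 lines, by -4.16 ± 0.24 in FNV (17.9-fold, adjusted p = 3.3e-08 in limma), -1.94 ± 0.28 in miniSOX (3.83-fold, adjusted p = 0.000296 in limma) and -1.17 ± 0.24 in SOX2 (2.25-fold, adjusted p = 0.00462 in limma). Spred1 fell by -1.07 ± 0.11 in FNV (adjusted p = 6.12e-06 in limma) and -1.32 ± 0.13 in miniSOX (adjusted p = 9.78e-06 in limma), and -0.10 ± 0.11 in SOX2 was not called (adjusted p = 0.556 in limma). In FNV the 3 phosphatase genes also fell, Dusp4 by -3.39 ± 0.81 (10.5-fold, adjusted p = 0.00595 in limma), Dusp5 by -1.98 ± 0.40 (adjusted p = 0.00203 in limma) and Dusp6 by -1.98 ± 0.59 (adjusted p = 0.0205 in limma). Etv5 fell by -0.40 ± 0.14 in FNV (adjusted p = 0.0458 in limma). The Dusp6 call was lost without any 1 of the 4 libraries (-2.05 to -1.91, adjusted p 0.0702 to 0.0947 in limma), and that of Etv5 without either NTC SL library or FNV SL replicate 2 (-0.43 to -0.27, adjusted p 0.107 to 0.29 in limma).

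The SL libraries of miniSOX belong to another wave than those of NTC and SOX2, so the wave term in these comparisons is estimated from 2i libraries. Spry2 was lower in miniSOX than in NTC by -1.35 ± 0.23 with that term (adjusted p = 0.00121 in limma) and by -0.69 without it (adjusted p = 0.181 in limma). Dusp4 read 163 and 150 in miniSOX SL, against 852 and 870 in NTC SL, with no overlap, but its fitted change was -0.72 ± 0.95 (adjusted p = 0.667 in limma). The wave term for Dusp4 rests on 2i libraries, which in SOX2 cells read 70 and 98 in the first and 4 and 4 in the second wave. Etv4 was not called in SL in any rescued line, at 0.27 ± 0.61 in FNV (adjusted p = 0.796 in limma), -0.57 ± 0.71 in miniSOX (adjusted p = 0.643 in limma) and 0.72 ± 0.61 in SOX2 (adjusted p = 0.464 in limma). With first-wave libraries alone, 2 in each group, 10 members were called in FNV in SL (against 8 in 2i; 9 lower, and Etv4 higher by 0.27 ± 0.09, adjusted p = 0.0415 in limma) and 4 in SOX2 (2 lower, 2 higher). The shares of all genes called in that fit are not given here, so these counts have no background beside them. Spry4 read 992 and 987 in SOX2 SL, against 377 and 363 in NTC SL, a difference of 1.42 ± 0.54 that was not called with all libraries (adjusted p = 0.0924 in limma).

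The third comparison sets the 2 engineered factors against the SOX2 rescue, in which transduction and DOX are shared. In 2i 4 of 10 members were lower in FNV than in SOX2 (background 12.9% lower, 12.4% higher) and 5 of 10 were lower in miniSOX (7.57% lower, 7.32% higher), with none called higher. Etv4 differed most, by -4.77 ± 0.43 in FNV (27.2-fold lower, adjusted p = 2.76e-06 in limma) and -4.25 ± 0.56 in miniSOX (19.1-fold lower, adjusted p = 0.00019 in limma). Spred1 was lower by -1.08 ± 0.08 in FNV (adjusted p = 3.32e-07 in limma) and -1.15 ± 0.10 in miniSOX (adjusted p = 4.46e-06 in limma), and these calls held in every alternative. Dusp6 was lower by -1.70 ± 0.42 in FNV (adjusted p = 0.00793 in limma) and -1.92 ± 0.54 in miniSOX (adjusted p = 0.0277 in limma). Spry4 was lower by -1.19 ± 0.38 in FNV (adjusted p = 0.0323 in limma) and -1.97 ± 0.50 in miniSOX (adjusted p = 0.0156 in limma). Ier3 was lower in miniSOX by -1.37 ± 0.22 (adjusted p = 0.000855 in limma), while -0.19 ± 0.17 in FNV did not pass. The Spry4 calls were lost on leaving out FNV 2i replicate 2 or p21, or SOX2 2i replicate 1, 2 or p21 (-1.28 to -0.68, adjusted p 0.0511 to 0.0886 in limma), and on leaving out either miniSOX 2i library (-2.22 to -1.73, adjusted p 0.0593 to 0.138 in limma). The miniSOX call of Dusp6 was lost without SOX2 2i p21 or p31 or either miniSOX 2i library (-2.38 to -1.46, adjusted p 0.0601 to 0.249 in limma). Where first-wave replicates were averaged, the Spry4 and Dusp6 calls of both lines were lost. Fitting only the groups compared removed Spry4 and Dusp6 in FNV and Ier3 in miniSOX. Without the wave term Spry4 in FNV and Dusp6 in miniSOX were lost. A pseudocount of 10 also removed Spry4 in FNV. With second-wave libraries alone 2 members were called in FNV (Spred1 lower and Dusp4 higher) and 1 in miniSOX. The share of all genes called in that fit is not given here, so these counts have no background beside them.

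In SL 8 of 10 members were lower in FNV than in SOX2 (background 11.2% lower, 10.2% higher) and 3 of 10 in miniSOX (11.2% lower, 10.4% higher). Ier3 (-2.99 ± 0.24, adjusted p = 1.61e-06 in limma) and Spred1 (-0.97 ± 0.11, adjusted p = 3.07e-05 in limma) were lower in FNV in every alternative. The other 6 calls in FNV were Spry2, Spry4, Spred2, Dusp5, Dusp6 and Etv5, and each was lost on leaving out at least 1 of the 4 SL libraries. The count then ranged from 2 to 5. Spry4 was the largest of them, at -2.18 ± 0.54 (adjusted p = 0.0103 in limma), and was lost without FNV SL replicate 2 or either SOX2 SL library (-2.19 to -2.18, adjusted p 0.0507 to 0.0582 in limma). In miniSOX Spry2 was lower by -1.45 ± 0.23 (adjusted p = 0.000631 in limma), Spry4 by -2.10 ± 0.63 (adjusted p = 0.0287 in limma) and Spred1 by -1.22 ± 0.13 (adjusted p = 1.93e-05 in limma). Without the wave term Spry2 was at -0.79 (adjusted p = 0.14 in limma) and Spry4 at -1.70, neither of them called, and the Spry4 call was also lost without any 1 of the 4 libraries (-2.15 to -2.04, adjusted p 0.0791 to 0.0983 in limma). Spred1 was the only member called lower in both engineered lines against both NTC and SOX2 in both media.

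Tests of the difference between lines in the response to 2i, given gene by gene above, called few members. Of 10, the SOX2 minus NTC difference was called for 4, all lower (background 9.01% lower, 9.82% higher), and the FNV minus NTC difference for 3 lower and 2 higher (12.4% lower, 13.4% higher). The miniSOX minus NTC difference was called for 3, all lower (5.96% lower, 7.71% higher), and the FNV minus SOX2 difference for 1 lower and 2 higher (10.1% lower, 10.7% higher). Spry4 was in all 3 sets against NTC. The difference between miniSOX and FNV was not tested.

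Levels across the 8 groups ordered most members alike. Over group means of log2(value + 1), the 28 pairs among the 8 genes other than Spry2 and Etv5 had Pearson r of 0.65 to 0.97, the highest for Spry4 with Dusp6. Pairs with Etv5 had r of 0.37 to 0.81, and pairs with Spry2 -0.19 to 0.66. These are descriptions over 8 groups that share libraries and a normalization. By the same measure, among 5352 genes whose group means span at least 2 log2 units, the genes most like Spry4 were Sox4 (r = 0.992) and Bnc2 (0.990), and those most like Dusp6 were Sulf1 and 4833407H14Rik (0.985 each). Etv4 was nearest to Kctd12b and Lpar4 (0.985 each), Spred1 to Nme3 (0.989) and Zfp462 (0.984), and Spred2 to Zdbf2 (0.970) and Olfr366 (0.962). Dusp4 was nearest to Tshb (0.970) and Enpp3 (0.967), Dusp5 to Arid3a and Sgk2 (0.963 each), Ier3 to Gm5148 (0.979) and Adm (0.964), Etv5 to Pax8 (0.971) and Rhobtb1 (0.970), and Spry2 to Atg9a (0.941) and Spaca1 (0.935). Over the 21 single libraries the r of these 20 genes with their members was 0.36 to 0.96, lowest for Spaca1 with Spry2.

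In the order of group means, Etv4, Spry4, Dusp4 and Dusp6 shared a pattern in which all 4 SL groups stood above all 4 2i groups. For Etv4 the order was SOX2 SL (2612), FNV SL (1925), miniSOX SL (1619), NTC SL (1591), NTC 2i (1144), SOX2 2i (842), miniSOX 2i (53.5) and FNV 2i (46.0), and neighbours overlapped only between miniSOX SL and NTC SL and between miniSOX 2i and FNV 2i. For Spry4 only FNV 2i (8.75) and miniSOX 2i (5.0) overlapped. Dusp6 overlapped between FNV SL (251) and NTC 2i (223), between SOX2 2i (82.0) and FNV 2i (28.5), and between FNV 2i and miniSOX 2i (25.0). For Dusp4 the order was NTC SL (861), SOX2 SL (423), miniSOX SL (157), FNV SL (82.0), SOX2 2i (44.0), NTC 2i (19.0), FNV 2i (15.8) and miniSOX 2i (6.5), with overlap between each pair of neighbours from FNV SL to FNV 2i. For Spry2 every neighbouring pair overlapped, and its group means spanned 211 to 363.

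Other genes of the pathway were followed as lists. Of 24 measured genes of 30 in a list of other ERK-responsive genes, 3 were called higher and 9 lower in 2i in FNV, 4 and 11 in miniSOX, 6 and 9 in SOX2, and 4 and 7 in NTC. Their median log2 changes were -0.43, -0.75, -0.32 and -0.44. The backgrounds were 20.3% higher and 20.4% lower in FNV, 17% and 16.4% in miniSOX, 22.3% and 22.5% in SOX2, and 11.9% and 12.8% in NTC, so the numbers called higher are not a result about the list. Egr1, an immediate early transcription factor, fell in all 4 lines, by -2.79 ± 0.60 in FNV (adjusted p = 0.0017 in limma), -3.04 ± 0.65 in miniSOX (adjusted p = 0.00234 in limma), -7.03 ± 0.60 in SOX2 (adjusted p = 5.73e-07 in limma) and -2.13 ± 0.61 in NTC (adjusted p = 0.0198 in limma). Egr1 levels were low, with averages in FNV, miniSOX, SOX2 and NTC of 1.75, 0.5, 1.5 and 5 in 2i, against 15, 11, 303 and 21 in SL. Myc, a growth-promoting transcription factor, fell by -2.65 ± 0.72 in FNV (adjusted p = 0.00844 in limma), -5.55 ± 0.79 in miniSOX (adjusted p = 8.11e-05 in limma) and -5.56 ± 0.72 in SOX2 (adjusted p = 2.7e-05 in limma). Against this direction Ccnd1, the cyclin D1 gene and a textbook ERK target, rose in 2i in NTC by 5.04 ± 0.20 (adjusted p = 5.15e-10 in limma), and Dusp14, another phosphatase gene, rose by 2.22 ± 0.33 in FNV (adjusted p = 9.35e-05 in limma) and 2.82 ± 0.36 in miniSOX (adjusted p = 3.35e-05 in limma).

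The genes of the cascade itself were called in both directions, and the backgrounds are those of the preceding list. Of 29 measured receptor, RAS, RAF, MEK and ERK pathway genes of 30 listed, 8 were called higher and 6 lower in 2i in FNV, 5 and 9 in miniSOX, 11 and 7 in SOX2, and 3 and 5 in NTC, with medians between -0.02 and -0.01. Fgfr2, a fibroblast growth factor receptor, fell in 2i by -2.71 ± 0.37 in miniSOX (adjusted p = 6.17e-05 in limma), -1.90 ± 0.34 in SOX2 (adjusted p = 0.000422 in limma) and -4.01 ± 0.35 in NTC (adjusted p = 1.97e-06 in limma). In SL it averaged 32.5 ± 4.9 in FNV (SD, n = 2), against 483 ± 2.8 in NTC (SD, n = 2), a change of -3.86 ± 0.37 (adjusted p = 4.27e-06 in limma). Ksr1, a scaffold of RAF and MEK, rose in 2i in FNV by 1.59 ± 0.26 (adjusted p = 0.000167 in limma). Against NTC in 2i, 7 cascade genes were higher and 9 lower in FNV, 4 and 6 in miniSOX, and 5 and 3 in SOX2. The backgrounds of these comparisons were 19.7% higher and 20% lower in FNV, 14.3% and 13.5% in miniSOX, and 14.4% and 14.3% in SOX2.

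Among 14 measured ETS factors of 20 listed, other than Etv4 and Etv5, 6 were called higher and 3 lower in 2i in FNV, 5 and 4 in miniSOX, 4 and 2 in SOX2, and 4 and 1 in NTC, with medians of 0.39, 0.20, 0.19 and 0.39. The backgrounds were 20.3% of all genes higher and 20.4% lower in FNV, and 17% and 16.4% in miniSOX. They were 22.3% and 22.5% in SOX2, and 11.9% and 12.8% in NTC. In FNV the share called lower was near its background, and in SOX2 and NTC it was below. Elf4 rose in all 4 lines, by 3.48 ± 0.24 in FNV (adjusted p = 6.65e-08 in limma), 2.25 ± 0.26 in miniSOX (adjusted p = 1.34e-05 in limma), 3.58 ± 0.24 in SOX2 (adjusted p = 5.42e-08 in limma) and 1.35 ± 0.24 in NTC (adjusted p = 0.00114 in limma). Ets1, the founding member of the family, fell by -3.04 ± 0.50 in FNV (adjusted p = 0.000193 in limma), -2.61 ± 0.54 in miniSOX (adjusted p = 0.00181 in limma) and -1.76 ± 0.50 in SOX2 (adjusted p = 0.00973 in limma).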

How the data were processed

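Poly(A) RNA of 21 libraries was sequenced. Per the submitters' processing notes, RSEM, Bowtie2 2.0 and mm10 were used. Normalization software, annotation and strand use are not given in the sources used here. The values in the deposited table count as a score here, since the authors had already rounded them after a normalization that left all libraries with almost the same distribution (no more than 3 apart at any rank). These are not counts, and depth is unknown. Of the columns, 16 matched 1 sample by name and 5 (p21 and p31) a group only.

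limma 3.58.1 (R 4.3.3), with intensity trend and robust moderation, was fitted to log2(value + 1), a scale that understates changes of low genes, with terms for 8 groups and for the wave (12 residual degrees of freedom). Tests are two-sided, adjusted by Benjamini-Hochberg over 16443 genes and called under 0.05, in 18 comparisons. The procedure was tested on simulated data. Named genes were all members, up to 4 called genes with the largest change in each list, and the 2 genes nearest to each member. The members, lists and tests were chosen with earlier results of these data known. Sequences are coding sequences of GENCODE M21 transcripts (longest coding transcript of a gene). Promoter windows were not analysed here. Figures used matplotlib 3.10.9. Alternatives covered the pseudocount (0.1, 10), a mean of at least 50, centring, the wave term, single waves, averaged replicates, the replicate block, the groups fitted and leaving out each library.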

Additional observations from a re-analysis of the deposited data

Results flagged for a closer look

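Among groups of 4 libraries, the highest library of FNV 2i passed a test for a single far value for 2 genes. Etv4 read 129 in FNV 2i p31, against 15 to 22 in the other 3 libraries, and Ier3 read 26 in FNV 2i p21, against 23 in the other 3. Dixon's ratios were 0.939 and 1, above the 95% critical value for 4 samples, and chance gives about 1 such gap in 20 groups. All 10 members were searched in both FNV 2i and SOX2 2i, so about 1 such gap is what chance alone gives. For Ier3 the other 3 rounded values are tied, so the ratio is 1 whatever the gap, and it does not show that the library stands apart.

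The response to 2i differed between lines for several genes, by a test of the difference itself in limma. For SOX2 minus NTC the log2 differences were -3.21 for Spry4 (adjusted p = 0.00483), -0.50 for Spred1 (adjusted p = 0.0192), -0.96 for Spred2 (adjusted p = 0.0138) and -0.65 for Etv5 (adjusted p = 0.0196). For FNV minus NTC they were -2.22 for Spry4 (adjusted p = 0.026), -0.61 for Spred1 (adjusted p = 0.0044), 3.43 for Dusp4 (adjusted p = 0.0233), -5.57 for Etv4 (adjusted p = 0.000123) and 2.52 for Ier3 (adjusted p = 3.56e-05). For miniSOX minus NTC they were -3.09 for Spry4 (adjusted p = 0.0128), -2.17 for Dusp5 (adjusted p = 0.0182) and -4.22 for Etv4 (adjusted p = 0.00416). For FNV minus SOX2 they were 1.0 for Spry2 (adjusted p = 0.00952), -4.32 for Etv4 (adjusted p = 0.00118) and 2.80 for Ier3 (adjusted p = 2.83e-05).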

How the results depend on the processing

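Of 97 calls of members, 41 held in every alternative and every fit without 1 library, and 0 reversed. Calls lost were 45 of 97 with first-wave replicates averaged, 20 of 41 with the second wave alone, 19 of 97 without the wave term, 10 of 91 with only the groups compared, 3 of 97 with the replicate block, 2 of 97 with a pseudocount of 0.1 or centring, 1 of 97 with a pseudocount of 10, 0 of 88 at a mean of at least 50 and 0 of 66 with the first wave alone. With first-wave replicates averaged, which leaves fewer samples, members called in 2i against SL were 1 in NTC and 6 in SOX2, against NTC 3 in SOX2 2i, 0 in SOX2 SL and 2 in FNV SL, against SOX2 2 in FNV 2i, 3 in miniSOX 2i, 2 in FNV SL and 1 in miniSOX SL, and in differences of 2i response 0 (SOX2 minus NTC), 2 (FNV minus NTC), 0 (miniSOX minus NTC) and 1 (FNV minus SOX2). With the first wave alone they were 8 for 2i against SL in FNV, 4 and 10 against NTC in SL in SOX2 and FNV, and 8, 8 and 6 for the differences SOX2 minus NTC, FNV minus NTC and FNV minus SOX2. With the second wave alone, in 2i, they were 2, 4 and 5 against NTC in SOX2, FNV and miniSOX, and 2 and 1 against SOX2 in FNV and miniSOX. Without the wave term they were 4 for FNV against SOX2 in SL, 2 for SOX2 minus NTC and 3 for FNV minus NTC. With only the groups compared they were 4 for SOX2 against NTC in SL, 2 for FNV against SOX2 in 2i and 8 for miniSOX minus NTC, and a pseudocount of 10 gave 2 for SOX2 against NTC in SL. The cause was not tested. For none of these alternative fits is the share of all genes called given here, so their member counts have no background beside them. Without 1 library each, counts ranged from 3 to 7 (2i against SL in NTC), 3 to 5 (miniSOX against SOX2 in 2i), 2 to 5 (FNV against SOX2 in SL), 2 to 5 (SOX2 minus NTC), 3 to 6 (FNV minus NTC), 2 to 4 (miniSOX minus NTC) and 3 to 6 (FNV minus SOX2). The replicate block moved 0 of 18 counts, and same-numbered libraries did not deviate together (r from -0.056 to 0.086), so the numbers do not pair the samples. Only the groups compared could not be fitted for miniSOX against NTC or SOX2 in SL, where wave and line coincide. Depth is unknown, so low values such as Egr1 in 2i have no counting error.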
